A study of Mus musculus with 20 samples.

Results

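The contrast between the middle ages and the end ages of the Nrl-/- retina asks which genes were transiently high or low, that is, higher or lower at 2, 4 and 6 months than at both 1 month and 10 months of age. All 20 arrays of the series entered it, 12 of the middle ages and 8 of the end ages, with 4 mice at each of the 5 ages. Every mouse was Nrl-/- on the C57Bl/6J strain, and the 4 replicates of an age are 4 mice, each giving both its retinas to 1 array. Total retinal RNA was depleted of ribosomal RNA, amplified as sense-strand cDNA and hybridised to exon arrays. The groups differ in age alone as far as the labels say, and no sex, batch or date is given. There was no wild-type retina among the arrays, so a transient change of the mutant and one of normal ageing cannot be told apart. A gene was called when the contrast, the mean of the 2, 4 and 6 month means minus the mean of the 1 and 10 month means, had an adjusted p under 0.05 in limma with Benjamini-Hochberg adjustment over all 11835 genes tested. A called gene was a peak when its middle mean lay above both end means and a dip when it lay below both. By this rule there were 1383 members, 678 peaks and 705 dips.

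The product of Nrl is a transcription factor that young photoreceptors need to become rods. Without it they develop as cone-like cells, and part of these photoreceptors are lost in the first months while the rest persist. Dying photoreceptors are cleared by microglia, the phagocytes of the retina, which make complement C1q, and the radial Muller glia respond with the genes known as gliosis genes. Photoreceptors fold large amounts of membrane protein in the endoplasmic reticulum. When unfolded protein builds up there, the sensors of the unfolded protein response raise chaperone genes through the transcription factors ATF6 and XBP1. Immediate early genes such as Fos and Egr1 are a different class, transcription factor genes that neurons switch on within minutes of activity or handling and switch off soon after.

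The values are log2 levels per gene. They ran from 0.986 to 14.3 per probe set, and a median of 9 probe sets was combined for each gene. A difference on this scale is the log2 of a fold change, and levels of different genes cannot be compared. The cone genes that mark the photoreceptors of this retina were high at all ages, with Opn1sw, the short-wavelength cone opsin gene, between 13.49 and 13.77 and the cone transducin gene Gnat2 between 12.87 and 13.08. Nrl itself measured between 5.97 and 6.53 against a limit of 5.61 for testing, and whether these probe sets cover the deletion is not stated. The array of 4 months replicate 4 stood apart (mean correlation 0.960 with the other arrays over all probe sets, against 0.969 to 0.981 for the rest). The Y-linked gene Eif2s3y was between 3.85 and 4.07 in all 4 arrays of 2 months, at 3.80 and 4.35 in replicates 2 and 3 of 10 months, and between 7.43 and 8.85 in the others. Age and this Y-linked difference thus cannot be told apart where 2 months differs from 1, 4 and 6 months. This includes the tests among the middle ages. Levels of genes known from tissues next to the retina differed between arrays. The mean of the 10 tested lens genes lay between 6.69 and 7.18 at 1 month and between 6.08 and 6.98 in the middle arrays. The mean of the 16 tested pigment epithelium and melanocyte genes lay between 7.02 and 8.20 at 10 months and between 7.06 and 7.50 at the middle ages. The part of these differences in the contrast was not tested beyond the fits named with the counts. In whole retina, fewer cells of a type and less RNA per cell cannot be told apart.

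The contrast called 1920 genes, 16.2% of those tested, 1011 higher and 909 lower at the middle ages, and 3412 had an unadjusted p under 0.05. Of the called genes, 678 were peaks (5.73%) and 705 were dips (5.96%). The remaining 537 were one-sided, with the middle mean between the end means. The median difference over all genes tested was -0.0037. RMA usually equalises the distributions of the arrays, whose medians lay between 7.76 and 7.78, so a median near 0 is no measurement of the RNA content. Most differences were small: 8 peaks and 8 dips reached 1.5-fold on the linear scale. The genes nearest the threshold were the dip Trank1 (adjusted p = 0.04996) and the peak Mpp5 (0.05, before rounding under the threshold) inside it and Pcbp3 (0.05006) and Cntnap1 (0.05022) outside it. With the mean of the lens genes as a covariate 371 genes were called (174 peaks and 110 dips), and with that of the pigment genes 902 (341 and 336). The lens covariate was the mean of all 18 lens genes on the array, tested or not. It lay between 5.857 and 6.511 at 1 month, where it overlapped 6 months replicate 2 (5.969), and every other later array was lower. The lens level and the first age can thus be told apart only in small part. Without the 2 month group, which was low in Y-linked genes throughout, 1167 genes were called (433 peaks and 446 dips).

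A contrast against the mean of both ends can be passed on the strength of 1 end. Taken against 10 months the middle ages differed for 3925 genes (33.2%), and against 1 month for 2419 (20.4%). Among the 678 peaks, 411 passed against 10 months and not 1 month, 132 against 1 month and not 10 months, 118 against each of them and 17 against neither. Among the 705 dips these counts were 325, 216, 148 and 16. The genes that passed against each end with the same sign are 0.997% of those tested for peaks and 1.25% for dips. This way of counting was chosen after the data had been seen. The stricter test takes the larger of both p-values and adjusts it over all genes, and 8 peaks (0.0676%) and 3 dips (0.0253%) passed it. The number is unstable, and it was 0 in both directions without replicate 2 or replicate 3 of 1 month. When each of the 20 arrays was left out in turn, all 11 genes stayed called in the contrast, but each missed the test against both ends in some fits. Egr1 missed it in 2 fits, Hspa5, Ctss, Itgam and Gpr152 in 4, Sdf2l1 in 5, Arg2 in 7 and Oasl2 in 9. In 21 genes all 12 middle arrays lay above all 8 end arrays (0.177%), and in 25 all lay below (0.211%).

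**Figure D1:**
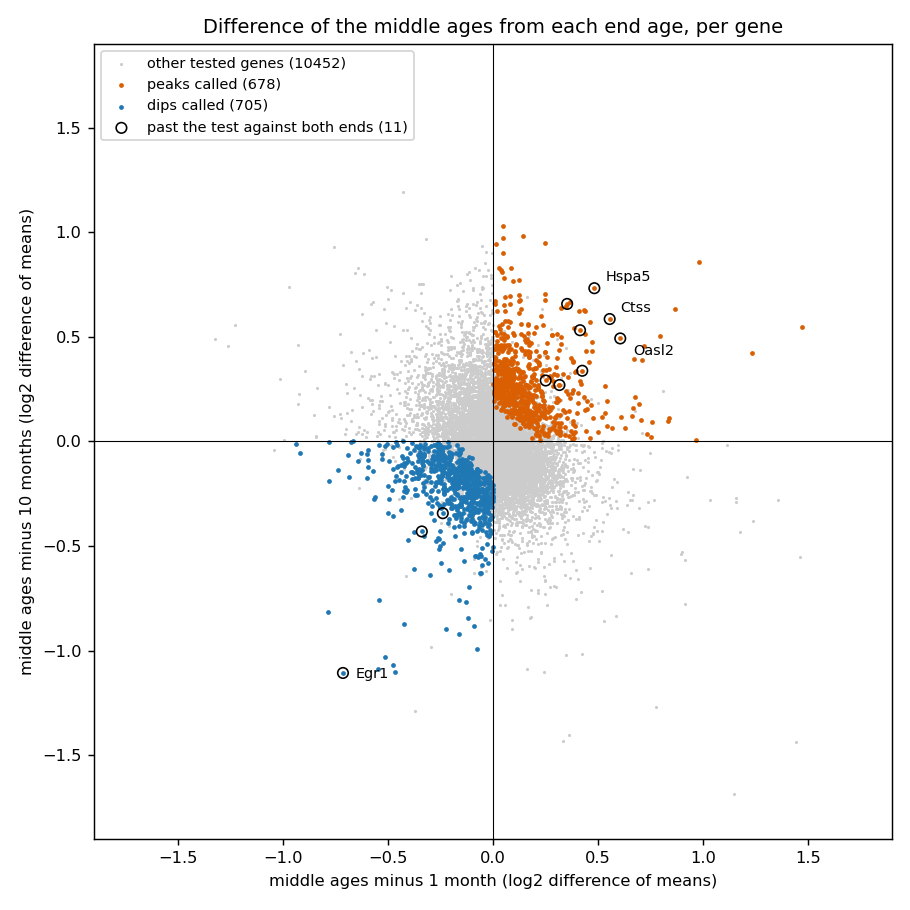
Each point is a gene, with the difference of the middle ages from 1 month on the horizontal axis and from 10 months on the vertical axis, both as log2 differences of group means. Peaks lie at the upper right (678) and dips at the lower left (705), circles mark the 11 genes past the test against both ends, and 3 genes lie outside the plotted range.

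In this balanced design the estimates of the difference between the end ages and of those among the middle ages are uncorrelated with that of the contrast. A peak or dip, however, needs a middle mean beyond both ends, which limits how far its ends can differ. Counts of end differences within peaks and dips therefore describe these genes and are not independent of their selection. At 10 months 4900 genes (41.4%) differed from 1 month. Of the peaks 347 differed between the ends, 70 higher and 277 lower at 10 months, and of the dips 309 did, 177 higher and 132 lower. The F test among 2, 4 and 6 months called 43 genes (0.363%), 3 of them peaks and 1 a dip. Laptm5 and C1qb, both microglia genes described below, were among these peaks. By mean, 286 peaks were highest at 2 months, 155 at 4 months and 237 at 6 months. The dips were lowest at 2 months in 301 genes, at 4 months in 186 and at 6 months in 218. Over all 11835 genes tested, the most extreme middle age in the direction of the contrast was 2 months in 4275, 4 months in 3463 and 6 months in 4097. In 517 of the peaks and 561 of the dips each of the middle means lay beyond both ends, as in 2518 of all genes tested.

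Unfolded protein response genes formed one group of peaks. Of the 18 tested genes in their list 9 were peaks and 0 were dips, beside 5.73% and 5.96% of all genes tested. Each of the 9 passed against each end separately. Pdia4 was also called, as one-sided. The median difference of the list was 0.24. Counts for the list were between 9 and 10 when any 1 array was left out, 9 without the 2 month group and 6 with the lens covariate. The list was chosen with earlier results of these data known, so the count describes these genes and is not independent evidence.

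Hspa5, which encodes BiP, the main Hsp70 chaperone of the endoplasmic reticulum, measured 11.21, 10.99, 11.07 and 11.12 at 1 month and 11.13, 10.64, 10.73 and 10.89 at 10 months. The middle arrays ran from 11.44 through a median of 11.54 to 11.83. All 12 middle arrays were thus above all 8 end arrays, and all 11 probe sets of the gene moved up. The middle ages exceeded the ends by 0.61 ± 0.06 (SE), or 1.52-fold, with an adjusted p of 5.98e-06. They exceeded 1 month by 0.48 ± 0.07 and 10 months by 0.73 ± 0.07 (adjusted p = 0.0224 against both ends), and 10 months minus 1 month was -0.25 (adjusted p = 0.0338). Sdf2l1, which encodes a protein that works with BiP, measured 6.76, 6.75, 6.85 and 7.01 at 1 month and 6.76, 6.98, 7.05 and 6.93 at 10 months. The middle arrays ran from 7.07 through 7.25 to 7.44, again above every end array. The difference was 0.38 ± 0.04 (adjusted p = 2.9e-05, and 0.0229 against both ends).

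The other peaks of the list differed in how they stood at the end ages. Dnajc3, a co-chaperone gene of BiP, stood at 9.53 ± 0.05 (SD, n = 4) at 1 month and 9.54 ± 0.16 at 10 months, with middle means of 9.94, 9.80 and 9.86 at 2, 4 and 6 months. It rose by 0.33 ± 0.05 (SE) and its end ages did not pass the test against each other (10 months minus 1 month 0.01, adjusted p = 0.938). Hyou1, a large chaperone gene, had a difference of 0.29 ± 0.05, with 10.05 ± 0.10 at 1 month and 9.94 ± 0.10 at 10 months. Creld2, a gene induced by stress of the endoplasmic reticulum, was 8.46 ± 0.06 at 1 month, 8.60, 8.59 and 8.60 at the middle ages, and 7.62 ± 0.08 at 10 months. Its difference of 0.56 ± 0.04 came mostly from the later end, 0.98 ± 0.04 above 10 months against 0.14 ± 0.04 above 1 month. Manf, which encodes a secreted protein of the same response, and Pdia6, a disulfide isomerase gene, were also lower at 10 months than at 1 month (10 months minus 1 month -0.43 and -0.32, adjusted p = 0.00273 and 0.000935). Their middle ages exceeded the ends by 0.46 ± 0.07 and 0.40 ± 0.04, and for Pdia6 every middle array (9.98 to 10.34) was above every end array (9.42 to 9.93).

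Xbp1, the transcription factor gene of the response, was 10.14 ± 0.08 at 1 month and 9.91 ± 0.31 at 10 months, with middle arrays from 10.23 to 10.71. The difference was 0.39 ± 0.07 (adjusted p = 0.000963), and the middle arrays overlapped replicate 1 of 10 months, at 10.27. These values are for the whole transcript, and the spliced form that encodes the active factor was not measured apart. Calr, the gene of the calcium-binding chaperone calreticulin, had a small difference of 0.19 ± 0.04 (adjusted p = 0.00141). Members that were not called included Hsp90b1 (0.03 ± 0.05), Canx (0.13 ± 0.09) and the disulfide isomerase gene Pdia3 (0.17 ± 0.08, adjusted p = 0.145). Pdia3 was called without 4 months replicate 4 (0.211, adjusted p = 0.025). Pdia4 stood at 9.98 ± 0.04 at 1 month, did not pass between 1 month and the middle ages (-0.05 ± 0.05), and was 0.79 ± 0.05 higher at the middle ages than at 10 months.

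**Figure D2:**
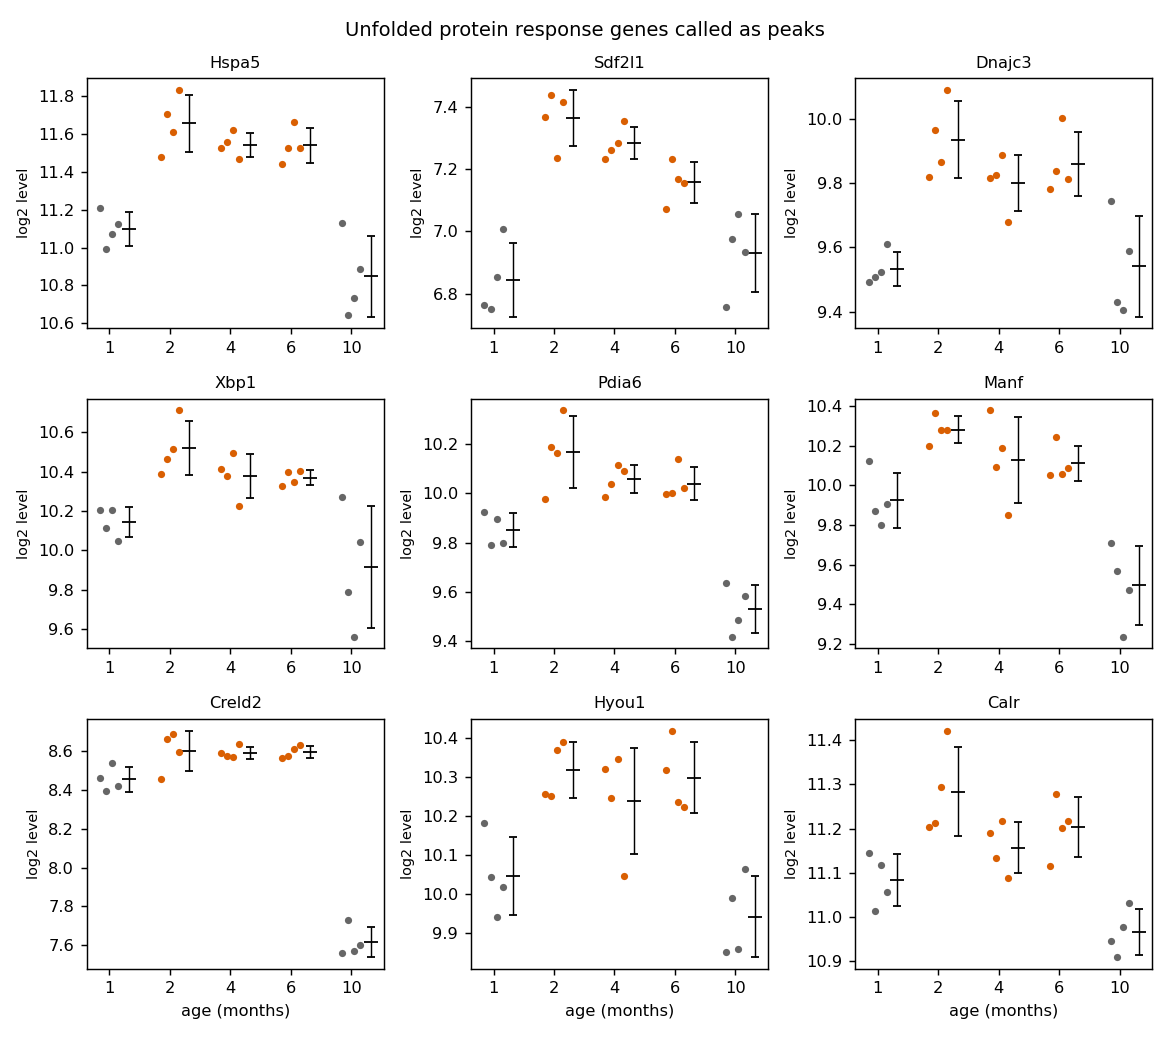
Levels of the 9 unfolded protein response genes called as peaks, 1 panel per gene, with age in months on the horizontal axis (evenly spaced) and the log2 level on the vertical axis. Points are arrays (orange for 2, 4 and 6 months, grey for 1 and 10 months) and the black bars give mean ± SD of 4 arrays; Hspa5, Sdf2l1 and Pdia6 have no overlap between orange and grey points, while Creld2 shows its largest step between 6 and 10 months.

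The endoplasmic reticulum stress response element (ERSE), to which ATF6 and the factor NF-Y bind, was searched on both strands, as CCAAT, 9 free bases and CCACG, in windows of 300 bases, 250 before and 50 after each start of transcription, from RefSeq on GRCm38.p6. Of all 27025 genes with a window 37 held it (0.137%), and of the 9469 tested genes with a window 16 did (0.169%). It was found in 5 of the 547 peaks with a window (0.914%) and in 0 of the 575 dips. All 5 of these peaks were in the unfolded protein response list: Hspa5, Dnajc3, Pdia6, Creld2 and Calr, out of the 7 peaks of the list with a window. Of the 16 tested genes of the list with a window 7 held it, including Hsp90b1 and Canx, which were not called. This element is known from promoters of such genes, so its presence in a list of unfolded protein response genes is no independent finding. The 250 bases before the start are printed below for those 5 genes, 5′ to 3′ on the strand of the gene, with the match in capitals; in Creld2 and Calr it runs on the opposite strand. The windows are chr2:34771840-34772089, plus strand for Hspa5, chr14:118937682-118937931, plus strand for Dnajc3, chr12:17266339-17266588, plus strand for Pdia6, chr15:88819396-88819645, plus strand for Creld2, and chr8:84846932-84847181, minus strand for Calr. A match is a description of these letters and does not show binding.
Hspa5: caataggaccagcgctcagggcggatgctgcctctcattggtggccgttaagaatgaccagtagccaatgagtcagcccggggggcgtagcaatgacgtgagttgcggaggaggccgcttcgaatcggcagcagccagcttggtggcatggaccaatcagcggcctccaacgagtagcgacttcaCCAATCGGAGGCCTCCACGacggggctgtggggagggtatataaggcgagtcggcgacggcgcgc
Dnajc3: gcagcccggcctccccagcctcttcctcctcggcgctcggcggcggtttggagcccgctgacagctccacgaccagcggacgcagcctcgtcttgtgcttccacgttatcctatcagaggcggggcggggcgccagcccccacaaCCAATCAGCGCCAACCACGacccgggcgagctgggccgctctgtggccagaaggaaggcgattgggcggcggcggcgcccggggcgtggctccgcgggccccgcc
Pdia6: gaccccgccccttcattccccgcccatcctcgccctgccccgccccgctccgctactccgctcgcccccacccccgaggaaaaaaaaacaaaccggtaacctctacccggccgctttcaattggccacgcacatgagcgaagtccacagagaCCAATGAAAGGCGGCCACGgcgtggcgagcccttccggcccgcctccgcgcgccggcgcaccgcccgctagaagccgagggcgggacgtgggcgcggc
Creld2: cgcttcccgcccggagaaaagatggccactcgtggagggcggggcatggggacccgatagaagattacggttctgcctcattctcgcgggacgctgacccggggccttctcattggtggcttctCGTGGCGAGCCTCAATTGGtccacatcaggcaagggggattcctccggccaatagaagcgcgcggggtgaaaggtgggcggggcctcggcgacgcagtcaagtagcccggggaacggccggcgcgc
Calr: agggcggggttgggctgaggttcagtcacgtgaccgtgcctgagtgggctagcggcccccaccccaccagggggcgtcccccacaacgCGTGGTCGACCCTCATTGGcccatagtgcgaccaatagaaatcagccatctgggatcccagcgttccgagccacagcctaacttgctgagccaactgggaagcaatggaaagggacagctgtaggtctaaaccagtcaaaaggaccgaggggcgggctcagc
In Hspa5, the gene with the largest difference of the 5, the match ended 46 bases before the start. In Dnajc3, Pdia6, Creld2 and Calr it ended 86, 79, 107 and 143 bases before it. Sdf2l1 and Xbp1 held no match in this window.

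Genes of microglia and macrophages made up the second group of peaks. Of 21 tested genes 11 were peaks and 0 were dips, beside 5.73% and 5.96% of all genes tested. Among the 11 peaks 9 passed against each end, and the median difference of the list was 0.187. The peaks were Ctss, Ly86, Itgam, C1qa, Tyrobp, C1qb, C1qc, Laptm5, Tmem119, Cd53 and Csf1r. The mean of the list was highest at 2 months (7.09 to 7.23), lower at 4 and 6 months (6.98 to 7.06 and 6.81 to 6.96), and between 6.73 and 6.85 at 1 month and 6.65 and 6.90 at 10 months. The count was 7 without the 2 month group and 6 with the lens covariate.

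Ctss, the gene of the lysosomal protease cathepsin S, measured 8.91, 8.80, 8.87 and 8.75 at 1 month and 9.06, 8.47, 8.73 and 8.93 at 10 months. The middle arrays ran from 9.07 through 9.40 to 9.78. No middle array overlapped the ends, although the lowest, 9.07, was next to replicate 1 of 10 months. Ctss rose by 0.57 ± 0.07, or 1.48-fold (adjusted p = 4.57e-05, and 0.0229 against both ends). The ends did not pass the test against each other (10 months minus 1 month -0.03, adjusted p = 0.844). Itgam, the integrin gene for CD11b, measured 6.67, 6.31, 6.48 and 6.49 at 1 month and 6.45, 6.31, 6.34 and 6.36 at 10 months. Its middle arrays ran from 6.61 through 6.84 to 7.22, and 10 of the 12 were above every end array. The difference was 0.47 ± 0.05 (adjusted p = 2.6e-05, and 0.0229 against both ends), with all 31 probe sets up. Itgam was highest at 2 months, 7.10 ± 0.16, and 6.70 ± 0.09 at 6 months.

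The other genes named here were also highest at 2 months by their means. All arrays of that age were low in Y-linked genes, so age and this difference cannot be told apart there. Laptm5, a lysosomal membrane gene of immune cells, went from 8.02 at 1 month to 8.50 at 2 months, 8.22 at 4, 8.07 at 6 and 7.84 at 10 months, and differed among the middle ages (F test, adjusted p = 0.0379). Tyrobp, which encodes the adaptor DAP12 of microglial receptors, had means of 5.70, 6.29, 6.05, 5.71 and 5.52 over the ages and a difference of 0.41 ± 0.08. Ly86, an immune receptor partner, differed by 0.48 ± 0.08. Tmem119, a gene used to tell resident microglia from other macrophages, differed by 0.26 ± 0.04 (adjusted p = 0.000657). Csf1r, the receptor gene on which microglia depend, had a difference of 0.19 ± 0.05 (adjusted p = 0.0191). Cd53, a tetraspanin gene of white blood cells, differed by 0.23 ± 0.07, and its call was lost without 1 month replicate 2 (adjusted p = 0.053). The homeostatic receptor genes Cx3cr1 (-0.03 ± 0.06) and P2ry12 (0.01 ± 0.05), Trem2 (0.08 ± 0.07) and Aif1 (0.04 ± 0.08) were not called. Ptprc and Lyz2 were too dim to test. The list therefore did not move as 1 block, and its defining markers were split between called and not called. The 6 tested T and B cell genes held 0 peaks and 0 dips, beside 5.73% and 5.96% of all genes tested.

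In the complement list 6 of 9 tested genes were peaks, beside 5.73% of all genes tested, and Cd59a was one-sided. The median difference of the list was 0.435. C4b, the gene of the component that C1 cleaves, measured 8.71, 8.45, 8.51 and 8.55 at 1 month, from 9.32 through 9.83 to 10.17 at the middle ages, and 9.34, 9.39, 9.37 and 9.36 at 10 months. Only 1 middle array lay below the highest array of 10 months. C4b rose by 0.83 ± 0.08, 1.77-fold (adjusted p = 2.92e-06). It was 1.23 ± 0.10 above 1 month and 0.42 ± 0.10 above 10 months, and 10 months remained 0.81 above 1 month (adjusted p = 2.14e-05). Serping1, the gene of the C1 inhibitor, measured 8.35, 8.07, 8.17 and 8.13 at 1 month, from 8.68 through 8.94 to 9.38 in the middle, and 8.48, 8.29, 8.36 and 8.74 at 10 months. All but 2 middle arrays were above every end array. Its difference was 0.65 ± 0.08 (adjusted p = 3.82e-05).

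The C1q genes were peaks whose end ages did not differ by the test. C1qa, C1qb and C1qc differed by 0.44 ± 0.09, 0.39 ± 0.07 and 0.38 ± 0.06, and 10 months minus 1 month was 0.01, -0.23 and 0.00 (adjusted p = 0.965, 0.122 and 0.991). For C1qb the arrays of 10 months ran from 7.11 to 7.45 and those of 1 month from 7.40 to 7.57. C1qb was 8.16 ± 0.17 at 2 months, 7.63 ± 0.22 at 4 months and 7.53 ± 0.22 at 6 months, and the F test among these ages gave an adjusted p of 0.0329. Cfi, which encodes a protease that inactivates C3b and C4b, and Cd59a, an inhibitor of the membrane attack complex, differed from the C1q genes. Cfi was 5.71 at 1 month, 6.54 over the middle ages and 6.44 at 10 months, and Cd59a 7.98, 9.09 and 9.11. They rose after 1 month (0.83 ± 0.10 and 1.11 ± 0.12) and did not pass between the middle ages and 10 months (0.10 ± 0.10 and -0.02 ± 0.12). C3 and Cfb were not called.

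Interferon-induced genes were less uniform. Of 18 tested genes 6 were peaks, beside 5.73% of all genes tested. Of these peaks 1, Oasl2, passed against each end, and the median difference of the list was 0.221. Their list mean spread widely within ages, from 6.45 to 7.06 at 1 month. Oasl2, a gene of the oligoadenylate synthetase-like family, measured 7.94, 7.48, 7.81 and 7.70 at 1 month and 7.97, 7.67, 7.77 and 7.97 at 10 months. Its middle arrays ran from 8.14 through 8.28 to 8.73, above all end arrays. The difference was 0.55 ± 0.07, 1.46-fold (adjusted p = 4.57e-05, and 0.028 against both ends). Ifit1, which rested on 1 probe set, measured 6.43, 4.18, 5.11 and 5.74 at 1 month and 6.77, 5.14, 6.53 and 6.72 at 10 months, with 6.39 through 6.89 to 7.19 in the middle. The middle arrays overlapped 1 array of 1 month and all but 1 of 10 months. Ifit1 differed by 1.01 ± 0.24 (adjusted p = 0.00837), 1.47 ± 0.31 above 1 month, and did not pass against 10 months (0.55 ± 0.31, adjusted p = 0.19).

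The guanylate-binding protein genes Gbp2 and Gbp3 differed by 0.59 ± 0.17 and 0.39 ± 0.09. The call of Gbp2 (adjusted p = 0.0244) was lost without 1 month replicate 2 (adjusted p = 0.0621), 1 month replicate 3 (0.0596) or 10 months replicate 3 (0.0558). Irf9, a subunit of the factor that binds interferon response elements, was 8.32 at 1 month, 8.53, 8.37 and 8.11 at the middle ages and 7.83 at 10 months, so that its peak (0.26 ± 0.07) came from 10 months. Ifit3, also on 1 probe set, was not called (0.53 ± 0.35, adjusted p = 0.352). The list held 3 peaks without the 2 month group, 3 without the 2 arrays of 10 months low in Y-linked genes, and 1 with the lens covariate.

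The core of the interferon-stimulated response element, GAAA, 2 free bases and GAAA, searched on both strands of the same windows, was in 1079 of the 27025 genes with a window (3.99%) and in 9 of the 16 tested interferon genes with a window. Among the 6 peaks of the list 3 held it, namely Ifit1, Gbp2 and Gbp3, while Oasl2 held none in this window. Of all peaks with a window 4.94% held it, of all dips 3.48% and of all tested genes 3.32%. The windows of Ifit1 (chr19:34640639-34640888, plus strand) and Gbp3 (chr3:142559794-142560043, plus strand), each with 2 matches, are printed with the matches in capitals, 250 bases before the start, since they are the peaks of the list with more than 1 match. Gbp3 had 2 windows, and the window printed was chosen by its number of matches. The matches of Gbp3 overlap and run on as 1 stretch.
Ifit1: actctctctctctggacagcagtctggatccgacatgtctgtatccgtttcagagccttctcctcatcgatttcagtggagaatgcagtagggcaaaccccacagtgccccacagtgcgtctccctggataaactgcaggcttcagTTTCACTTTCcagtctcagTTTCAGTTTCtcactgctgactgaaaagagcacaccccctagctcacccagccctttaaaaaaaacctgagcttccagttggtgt
Gbp3: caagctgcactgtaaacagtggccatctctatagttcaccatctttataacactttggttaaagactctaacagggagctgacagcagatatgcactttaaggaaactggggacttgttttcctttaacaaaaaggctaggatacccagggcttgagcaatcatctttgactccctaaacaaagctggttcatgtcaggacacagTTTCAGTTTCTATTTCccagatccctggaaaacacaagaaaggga
In Ifit1 the matches ended 94 and 75 bases before the start of transcription, and in Gbp3 35 and 29 bases before it. All ran on the strand opposite to the gene.

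Of the 13 tested antigen presentation genes 4 were peaks, where 5.73% of all genes tested were peaks. The median of the list was 0.137 for the middle ages minus 1 month and -0.125 for the middle ages minus 10 months. The list mean was 7.19 at 1 month, 7.510, 7.467 and 7.352 at the middle ages and 7.472 at 10 months, so the list as a whole was not transient. B2m, the light chain gene of class I molecules, was 8.56 ± 0.17 at 1 month and 9.38, 9.13 and 9.15 at the middle ages, and 9.06 ± 0.23 at 10 months. It rose by 0.66 ± 0.08 from 1 month and did not pass against 10 months (0.16 ± 0.08, adjusted p = 0.139). H2-K1, a class I heavy chain gene, differed by 0.33 ± 0.07 and passed against each end. H2-D1 differed by 0.33 ± 0.09 on 2 probe sets, and near-identical class I genes can share probes. Psmb8, an immunoproteasome gene, differed by 0.32 ± 0.07. The class II genes H2-Ab1 and H2-Eb1 and the peptide transporter genes Tap1 and Tap2 were not called.

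Among 6 tested chemokine genes Cxcl13 and Cxcl16 were peaks, beside 5.73% of all genes tested. Cxcl13, which attracts B cells, had the largest difference of all peaks that passed against each end. It measured 6.06, 5.14, 6.50 and 5.87 at 1 month, 7.15, 7.50, 7.28 and 7.21 at 2 months, 7.12, 6.61, 6.63 and 6.59 at 4 months, 6.56, 6.47, 6.68 and 6.66 at 6 months and 6.41, 5.87, 5.58 and 6.20 at 10 months. All middle arrays but 1 (6.47) were above every end array, the highest of which was 6.50 at 1 month. Cxcl13 rose by 0.92 ± 0.14, 1.89-fold (adjusted p = 0.000228), 0.98 ± 0.17 above 1 month and 0.86 ± 0.17 above 10 months.

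In the gliosis list 5 of 21 tested genes were peaks, where 5.73% of all genes tested were peaks, and 1, the endothelin gene Edn1, was a dip. The median of the list was 0.272 for the middle ages minus 1 month and -0.044 for the middle ages minus 10 months. The list mean was 8.02 at 1 month, 8.50, 8.47 and 8.32 at the middle ages and 8.53 at 10 months, so the list as a whole was not transient. Serpina3n, a protease inhibitor gene of reactive glia, measured 9.51, 9.19, 9.39 and 9.55 at 1 month, from 9.73 through 10.24 to 10.75 in the middle, and 10.25, 9.39, 9.23 and 9.69 at 10 months. Replicate 1 of 10 months alone lay within the middle range. Serpina3n rose by 0.75 ± 0.11, 1.68-fold (adjusted p = 0.000164). Fgf2, a growth factor gene that supports photoreceptor survival, was 8.31 ± 0.09 at 1 month, 9.24 ± 0.27 at 2 months, 9.07 ± 0.23 at 4 months, 8.75 ± 0.12 at 6 months and 8.63 ± 0.08 at 10 months. The difference was 0.55 ± 0.08, 3 of its 5 probe sets going up and 2 down, and 10 months was still 0.32 above 1 month (adjusted p = 0.0346). Il6st, the gp130 receptor subunit gene, passed against each end with a small difference of 0.19 ± 0.05. S100a6 differed by 0.52 ± 0.13, and A2m by 0.38 ± 0.11, almost all of it from 1 month (0.75 ± 0.14 against 0.02 ± 0.14 from 10 months). The call of A2m was lost without 1 month replicate 2 (adjusted p = 0.0564) or 10 months replicate 2 (0.0569).

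Gfap, whose filament protein builds up in activated glia, was close to the threshold on the other side. Its means were 8.38, 8.74, 8.43, 8.25 and 8.09 over the ages, and its difference of 0.24 ± 0.08 had an adjusted p of 0.0555. It was under the threshold without 1 month replicate 1 (0.0467), 2 months replicate 1 (0.0125), 6 months replicate 4 (0.0494) or 10 months replicate 2 (0.0372). The metallothionein gene Mt2 had none of this pattern (0.00 ± 0.14), as it was 7.83 at 1 month, 9.27 over the middle ages and 10.71 at 10 months. Edn2, the endothelin gene of injured photoreceptors, was not called (0.10 ± 0.11, adjusted p = 0.606).

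**Figure D3:**
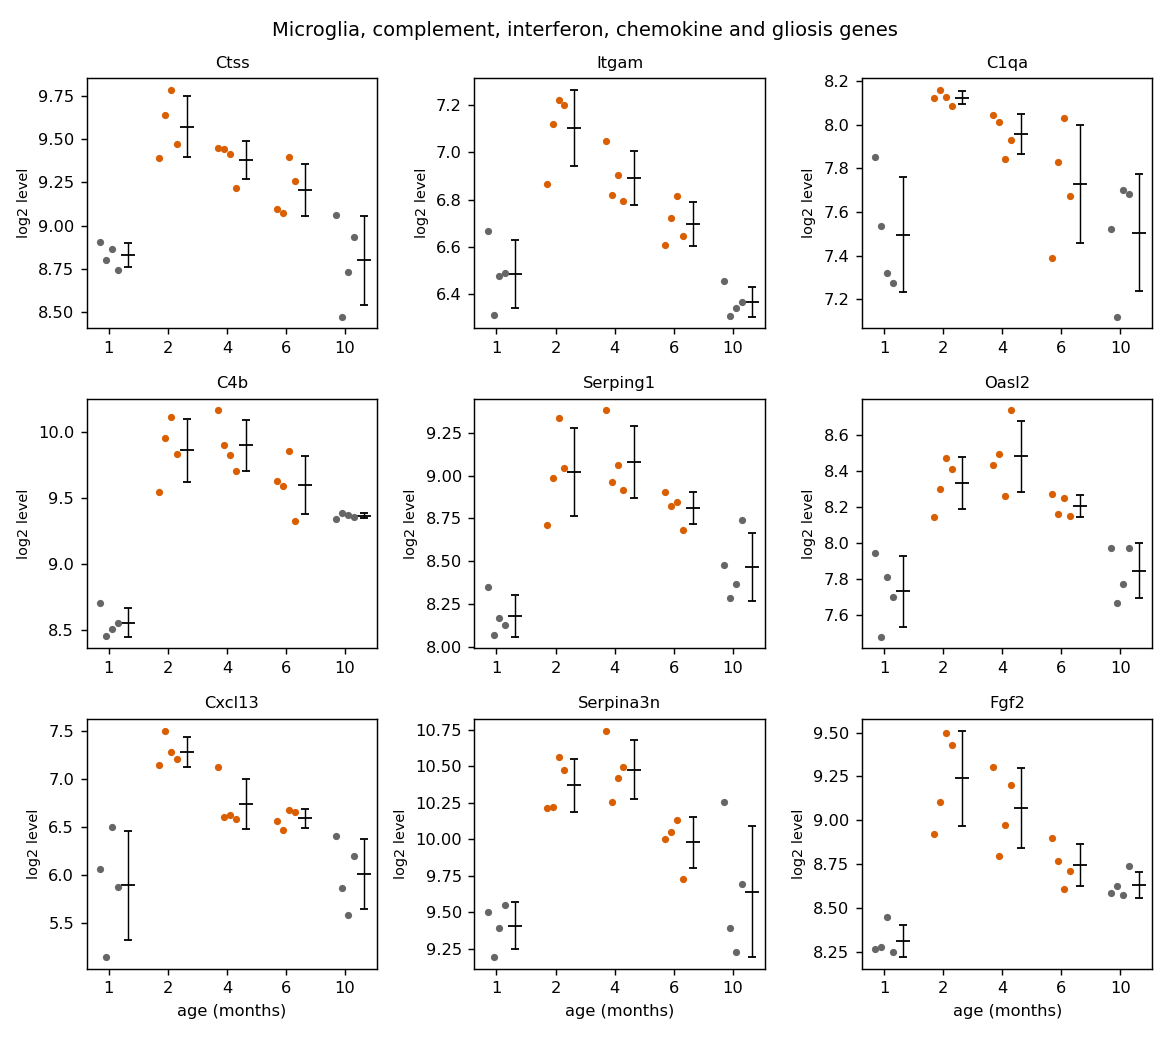
Levels of 9 genes of microglia (Ctss, Itgam), complement (C1qa, C4b, Serping1), interferon response (Oasl2), chemokines (Cxcl13) and gliosis (Serpina3n, Fgf2), with age in months (evenly spaced) against the log2 level. Points are arrays (orange for middle ages, grey for end ages), and black bars give mean ± SD of 4 arrays. Ctss and Oasl2 have no overlap between orange and grey points. Itgam and Cxcl13 decline from 2 to 6 months by their means (7.10, 6.89 and 6.70 for Itgam, 7.29, 6.74 and 6.59 for Cxcl13). All arrays of 2 months were low in Y-linked genes.

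Some peaks were genes of retinal neurons. Cabp5, a calcium-binding protein gene of bipolar cells, measured 11.96, 11.84, 11.85 and 11.76 at 1 month and 11.90, 11.87, 12.02 and 11.80 at 10 months, and from 12.07 through 12.15 to 12.36 in the middle. All middle arrays were above all end arrays, and Cabp5 rose by 0.29 ± 0.04, or 1.22-fold (adjusted p = 8.63e-05, and 0.0398 against both ends). It missed the test against both ends in 16 of the 20 fits that left out 1 array (adjusted p up to 0.14). In the bipolar cell list 2 of 18 tested genes were peaks and 2 were dips, beside 5.73% and 5.96% of all genes tested. The list thus had no shared direction. Rgs11, which speeds the shut-off of the ON bipolar cascade, was the dip of the list that passed against each end (-0.22 ± 0.05). Cabp4, which tunes the calcium channel of photoreceptor terminals, was 9.31 ± 0.22 at 1 month and 9.39 ± 0.05 at 10 months, with middle arrays from 9.51 to 10.10. Lrit1, a photoreceptor synapse gene, was 11.16 ± 0.07 and 11.08 ± 0.09 at the ends, with middle arrays from 11.25 to 11.44. Both genes had no overlap between middle and end arrays and rose by 0.42 ± 0.06 and 0.23 ± 0.04. For Lrit1, however, the lowest middle array (11.2519) all but touched the highest of 1 month (11.2518). Over the photoreceptor synapse list 3 of 19 tested genes were peaks and 3 were dips, beside 5.73% and 5.96% of all genes tested. The third peak was Cplx4 (0.27 ± 0.06), which passed against 10 months alone.

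Gpr152, an orphan receptor gene, measured 8.77, 8.70, 8.67 and 8.53 at 1 month and 8.25, 8.53, 8.19 and 8.47 at 10 months, and from 8.78 through 9.06 to 9.16 in the middle. The 4 arrays of 2 months lay between 9.13 and 9.16, and no middle array overlapped the ends. Gpr152 rose by 0.50 ± 0.05, 1.42-fold (adjusted p = 4.09e-06, and 0.0255 against both ends). Arg2, the gene of the mitochondrial arginase, measured 6.69, 6.55, 6.64 and 6.74 at 1 month and 6.61, 6.60, 6.68 and 6.57 at 10 months, and from 6.76 through 6.93 to 7.07 in the middle. It too had no overlap, with a difference of 0.27 ± 0.03 (adjusted p = 5.07e-05, and 0.0267 against both ends). With these the genes past the test against both ends on the high side are complete: Hspa5, Sdf2l1, Ctss, Itgam, Oasl2, Cabp5, Gpr152 and Arg2.

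In the cone list 4 of 17 tested genes were peaks and 1 a dip, beside 5.73% and 5.96% of all genes tested. Thrb, the thyroid hormone receptor gene that sets cone opsin identity, was the member that passed against each end, with 9.14 at 1 month, 9.60, 9.52 and 9.64 at the middle ages and 9.43 at 10 months (0.30 ± 0.04, adjusted p = 7e-05). The channel gene Cnga3 (0.48 ± 0.05) was 9.54 at 1 month and 8.61 at 10 months, with a middle mean 0.01 above that of 1 month. Pde6h, the inhibitory subunit gene of the cone phosphodiesterase, differed by 0.23 ± 0.05 and passed against 10 months alone. Opn1sw (0.04 ± 0.03), Gnat2 (0.03 ± 0.03), Arr3 (0.04 ± 0.04), Pde6c (-0.04 ± 0.04) and Opn1mw (0.11 ± 0.04, adjusted p = 0.0591) were not called, although Opn1mw was under the threshold without 10 months replicate 2 (0.0224) or replicate 3 (0.0351). Of these genes, Arr3 and Opn1mw fell most from 1 month to 10 months (-0.57 and -0.46). Opn1sw was also lower in every array, 13.49 to 13.63 at 10 months against 13.65 to 13.73 at 1 month. The rod phosphodiesterase gene Pde6b, 9.08 at 1 month, 8.98 at 2 months, 8.39 at 4 months, 8.20 at 6 months and 7.99 at 10 months, had a difference of -0.01 ± 0.07, since its fall ran through the middle ages.

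Peaks set by 10 months were found in the cilium and heat shock lists. Of 34 tested genes of ciliary transport 6 were peaks and 0 were dips, beside 5.73% and 5.96% of all genes tested. A further 3 were one-sided, and 0 passed against each end. Bbs7, a subunit gene of the complex that moves membrane proteins out of the cilium, was 8.73 at 1 month, 8.77, 8.77 and 8.81 at the middle ages and 8.01 at 10 months, and Ift80, an intraflagellar transport gene, 9.31, 9.43, 9.35, 9.36 and 8.92. Among 18 tested cytosolic heat shock genes 4 were peaks, beside 5.73% of all genes tested. Chordc1 (0.60 ± 0.11), a co-chaperone gene of Hsp90, led them. It was 0.95 above 10 months and did not pass against 1 month (0.24, adjusted p = 0.231). Genes of the integrated stress response, which ATF4 controls, included 3 peaks among 18 tested, where 5.73% of all genes tested were peaks. Mthfd2, an enzyme gene of mitochondrial folate metabolism, passed against each end (0.38 ± 0.07, 7.10 ± 0.10 at 1 month and 7.07 ± 0.22 at 10 months). Asns, the asparagine synthetase gene, differed by 0.23 ± 0.07 (adjusted p = 0.0319), and its call was lost in 7 of the 20 fits that left out 1 array, with an adjusted p of up to 0.0712 without 10 months replicate 1. Atf3 was not called (0.17 ± 0.08), except without 10 months replicate 2 (0.245, adjusted p = 0.0145). Of 36 tested genes of the mitochondrial respiratory chain 0 were called, beside 16.2% of all genes tested. Of 22 antioxidant genes 0 were peaks or dips, beside 5.73% and 5.96% of all genes tested.

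Immediate early genes were among the largest dips. Of 17 tested genes 9 were dips and 0 were peaks, beside 5.96% and 5.73% of all genes tested. Among the dips 6 passed against each end, and the median difference of the list was -0.282. The dips were Egr1, Npas4, Fos, Nr4a1, Egr3, Dusp1, Junb, Ier2 and Btg2. When any 1 array was left out 8 to 10 were called, 7 without the 2 month group and 4 with the lens covariate. The list mean lay between 7.84 and 7.99 at 1 month, between 7.56 and 7.86 at the middle ages and between 7.97 and 8.35 at 10 months.

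Egr1, a zinc finger transcription factor gene, measured 8.67, 8.85, 9.19 and 8.69 at 1 month and 9.29, 9.54, 9.19 and 8.96 at 10 months. The middle arrays ran from 7.75 through 8.12 to 8.47, below every end array. The difference was -0.91 ± 0.08, 1.88-fold lower (adjusted p = 2.92e-06, and 0.0224 against both ends), and 10 months was 0.39 above 1 month (adjusted p = 0.02). Fos, which encodes a subunit of the factor AP-1, measured 8.64, 8.84, 8.94 and 8.57 at 1 month, 9.61, 9.75, 9.01 and 8.999 at 10 months, and from 8.01 through 8.29 to 8.52 in the middle. The nuclear receptor gene Nr4a1 measured 10.51, 10.52, 10.75 and 10.41 at 1 month, 11.52, 11.12, 10.58 and 11.02 at 10 months, and from 9.72 through 10.06 to 10.19 in the middle. In both genes every middle array was below every end array, as in Egr1. Fos and Nr4a1 each had a difference of -0.77 ± 0.09 (adjusted p = 3.2e-05 and 2.9e-05), and both were higher at 10 months than at 1 month, by 0.59 and 0.51.

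Npas4, a transcription factor gene that neurons induce with activity, measured 6.85, 7.03, 7.27 and 6.99 at 1 month and 6.59, 6.45, 7.68 and 7.54 at 10 months. Its middle arrays ran from 5.89 through 6.26 to 6.54. They overlapped replicate 2 of 10 months, and the arrays of 10 months fell apart into a low and a high pair. Npas4 differed by -0.80 ± 0.13 (adjusted p = 0.000438), -0.78 ± 0.16 from 1 month and -0.82 ± 0.16 from 10 months. Its ends did not pass the test against each other (10 months minus 1 month 0.03, adjusted p = 0.911). Egr3 differed by -0.65 ± 0.09 on 2 probe sets, and the phosphatase gene Dusp1 by -0.32 ± 0.06. Dusp1 was higher at 1 month (8.78 ± 0.13) than over the middle ages (8.36) and stood at 8.58 ± 0.20 at 10 months. Junb (-0.30 ± 0.08) and Ier2 (-0.28 ± 0.07) were called and did not pass against each end. Nr4a3, with 7.16 ± 0.81 at 10 months, was not called (-0.38 ± 0.15, adjusted p = 0.103), except without 10 months replicate 3 (-0.484, adjusted p = 0.033) or replicate 4 (-0.495, adjusted p = 0.0244). The time of day and the handling at collection, to which these genes respond, are not stated in the labels.

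Foxred2 and Rnft2 complete the dips past the test against both ends. Foxred2, which encodes a flavoprotein of the degradation pathway of the endoplasmic reticulum, measured 8.64, 8.63, 8.56 and 8.55 at 1 month and 8.57, 8.65, 8.63 and 8.90 at 10 months. The middle arrays ran from 8.09 through 8.26 to 8.43, below every end array, and all 10 probe sets went down. It fell by 0.39 ± 0.05 (adjusted p = 4.64e-05, and 0.0316 against both ends), and missed the test against both ends in 10 of the 20 fits that left out 1 array (adjusted p up to 0.153). Rnft2, a gene for a membrane protein with a RING finger, measured 8.97, 8.98, 8.96 and 8.78 at 1 month and 8.96, 9.08, 9.04 and 9.02 at 10 months. Its middle arrays ran from 8.59 through 8.65 to 8.83, and 1 of them was above the lowest array of 1 month. The difference was -0.29 ± 0.04 (adjusted p = 3.82e-05, and 0.0437 against both ends). Rnft2 missed the latter test in 16 of these 20 fits (adjusted p up to 0.185).

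**Figure D4:**
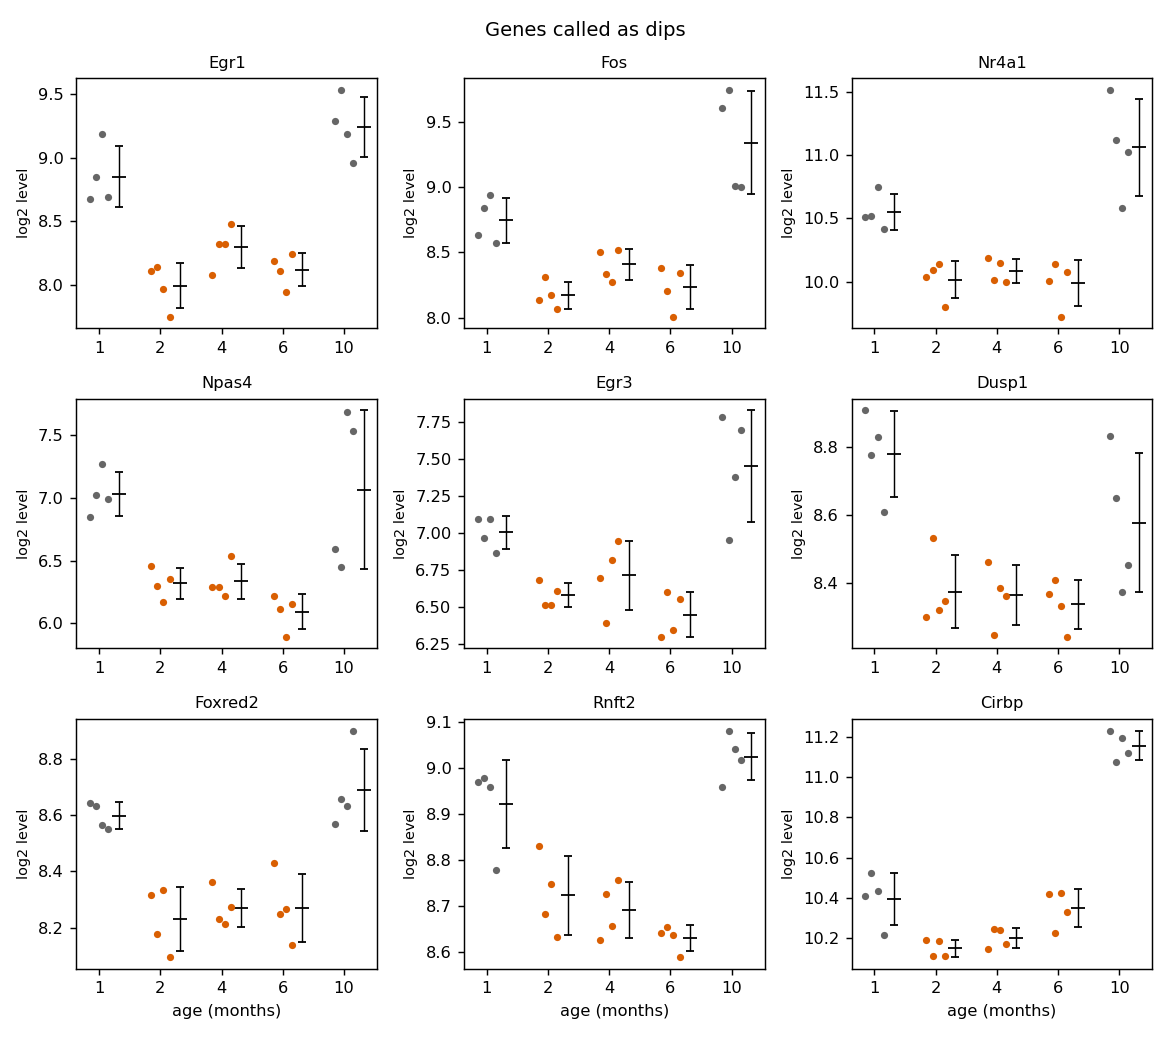
Levels of 9 genes called as dips, with age in months (evenly spaced) against the log2 level; points are arrays (orange for middle ages, grey for end ages) and black bars give mean ± SD of 4 arrays. In Egr1, Fos, Nr4a1 and Foxred2 every orange point is below every grey point, while in Cirbp the 10 month arrays (11.07 to 11.23) are far above all others and the 1 month arrays (10.22 to 10.52) overlap the middle ages.

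Clock and cold-inducible genes were low in the middle mainly against 10 months. Of 18 tested clock genes 4 were dips, beside 5.96% of all genes tested, and 2 more were one-sided. Arntl, which encodes BMAL1, the activator of the clock, was 9.73 ± 0.09 at 1 month, 9.62, 9.50 and 9.49 at the middle ages and 9.86 ± 0.15 at 10 months, and Csnk1e, a kinase gene that marks PER proteins for degradation, 10.54 ± 0.07, 10.38, 10.39, 10.36 and 10.68 ± 0.09. Both passed against each end (-0.26 ± 0.05 and -0.23 ± 0.03). Per1 (-0.49 ± 0.07) and Per2 (-0.25 ± 0.05) were at 10.30 and 8.42 at 10 months, and their middle ages differed from 10 months by -0.88 and -0.51. Neither passed against 1 month (-0.09 ± 0.09 for Per1 and -0.0027 for Per2), so both were high at 10 months rather than low in the middle. Cirbp, a cold-inducible RNA-binding protein gene, was 10.40 at 1 month, 10.15, 10.20 and 10.35 at the middle ages and 11.15 at 10 months, a difference of -0.54 ± 0.04 (adjusted p = 3.23e-07). The difference was -0.92 ± 0.05 from 10 months and -0.16 ± 0.05 from 1 month.

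Among 33 tested genes of SR proteins and splicing 9 were dips, where 5.96% of all genes tested were dips, and 1, Tra2a, was a peak. A further 2 were one-sided and higher, 3 one-sided and lower, and the median difference was -0.075. The median was -0.149 for the middle ages minus 1 month and 0.106 for the middle ages minus 10 months. The list mean was 9.91, 9.69, 9.62, 9.67 and 9.54 over the ages, lowest at 10 months, so the list as a whole was not transiently low. Clk4, a kinase gene that phosphorylates SR proteins, was 8.70 ± 0.09 at 1 month, 8.24, 8.05 and 8.12 at the middle ages and 8.41 ± 0.30 at 10 months, with a difference of -0.42 ± 0.07. The splicing factor genes Srsf2 (-0.28 ± 0.05) and Srsf6 (-0.24 ± 0.05) passed against each end as well. Rsrp1 (-0.49 ± 0.07) and Hnrnpdl (-0.44 ± 0.07) had larger differences that came from 1 month: Rsrp1 was 10.28 there, and 9.46, 9.28, 9.35 and 9.42 at the later ages. Tra2a went the other way, with 8.81 at 1 month and 8.03 at 10 months.

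Some matrix and vessel genes were lower at the middle ages than at both ends. Of 27 tested collagen and laminin genes 6 were dips and 0 were peaks, beside 5.96% and 5.73% of all genes tested. Col4a1 and Col4a2, the neighbouring genes of the main basement membrane collagen, were 7.87 ± 0.05 and 8.05 ± 0.05 at 1 month and 7.60 ± 0.09 and 8.12 ± 0.08 at 10 months, and both passed against each end (-0.32 ± 0.04 and -0.28 ± 0.05). Of the 50 probe sets of Col4a1 48 went down, but the brightest one taken alone gave 0.033 (adjusted p = 0.916). Among 24 tested blood vessel genes 4 were dips and 1 a peak, beside 5.96% and 5.73% of all genes tested. The median of the vessel list was -0.235 for the middle ages minus 1 month and -0.006 for the middle ages minus 10 months. Its mean was 7.61, 7.48, 7.36, 7.29 and 7.37 over the ages, so the vessel list as a whole was not transiently low. The endothelial cadherin gene Cdh5 was 7.45 at 1 month and 7.19, 6.97, 6.92 and 7.14 afterwards (-0.27 ± 0.06). Its middle ages differed by -0.43 from 1 month and -0.12 from 10 months, and it did not pass against each end. Acta2, the smooth muscle actin gene, differed by -0.44 ± 0.13 (adjusted p = 0.0299) with overlapping arrays. Its call was lost in 6 of the 20 fits that left out 1 array (adjusted p up to 0.0677 without 1 month replicate 1). Of 18 tested genes of cholesterol synthesis 6 were dips and 1 a peak, beside 5.96% and 5.73% of all genes tested. The dips included Hsd17b7 (-0.27 ± 0.05), which passed against 10 months alone, and Lss (-0.17 ± 0.05), which passed against 1 month alone. In the amacrine cell list 3 of 17 tested genes were dips and in the ganglion cell list 2 of 16, beside 5.96% of all genes tested, and neither list held a peak.

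The pigment epithelium and lens lists held 1 dip each among 16 and 10 tested genes, beside 5.96% of all genes tested. Pmel, a melanosome gene, measured between 6.60 and 8.90 at 10 months, and its call (-0.65 ± 0.21, adjusted p = 0.0429) was lost in 17 of the 20 fits that left out 1 array, with -0.444 (adjusted p = 0.0716) without 10 months replicate 1, the array at 8.90. Mip, the lens channel gene, differed by -0.31 ± 0.09 (adjusted p = 0.0277), and its call was lost without replicate 2 or 3 of 1 month or of 10 months (adjusted p from 0.0541 to 0.0682). The lens crystallin gene Cryaa was one-sided, with 9.14 ± 0.47 at 1 month and 6.60 ± 0.28 at 10 months. Its call was lost without 1 month replicate 2 (adjusted p = 0.0553).

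**Figure D5:**
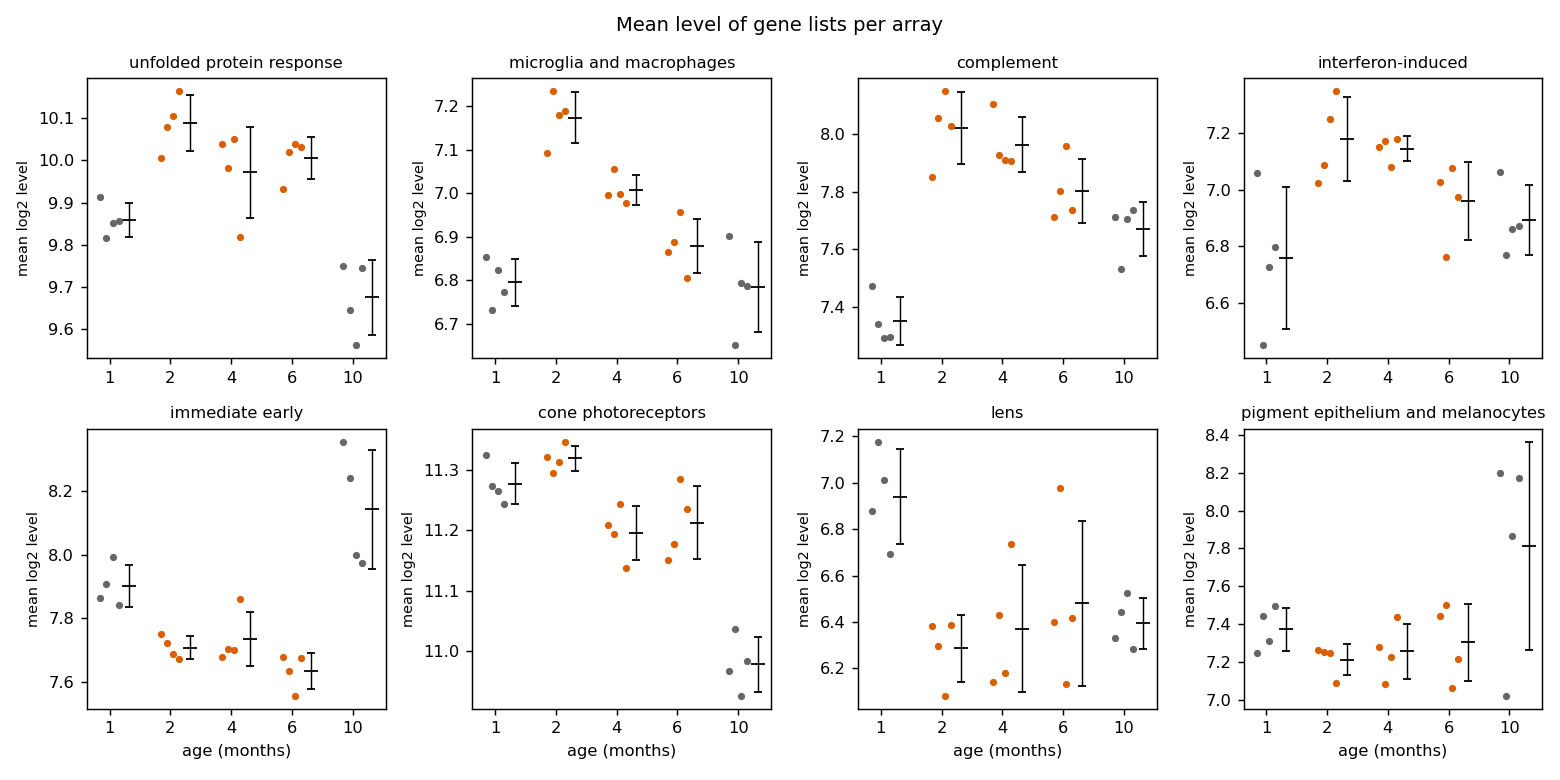
Mean log2 level per array of the tested members of 8 gene lists, with age in months (evenly spaced) on the horizontal axis; points are arrays (orange for middle ages, grey for end ages) and black bars give mean ± SD of 4 arrays. The microglia list is highest at 2 months (7.09 to 7.23), the immediate early list is low from 2 to 6 months (7.56 to 7.86), the lens list is highest by its mean at 1 month (6.69 to 7.18), and the pigment epithelium list spreads from 7.02 to 8.20 at 10 months.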

How the data were processed

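The deposited values are log2 levels of 194293 probe sets on 20 exon arrays, which the authors made with robust multi-array average (RMA), per the submitters' processing notes; its software, probe set selection and genome build: not given in the sources used here. Of these probe sets 179496 had 1 gene symbol, 1328 several and 13469 none, and 2039 gene symbols were updated through the RefSeq table. Probe sets of a gene were combined by median polish into 15781 genes, and the 25% dimmest were left out, so that 11835 were tested. Arrays carry no read depth, so their number limits the precision. A linear model with the 5 ages as groups was fitted in limma (lmFit, eBayes; version 3.58.1, under R 4.3.3), with Benjamini-Hochberg adjustment over all genes tested; every adjusted p comes from it. Errors after ± are standard errors for differences and standard deviations for levels with n = 4. Fold changes are on the linear scale of these values. Promoters are RefSeq windows on GRCm38.p6 of any gene with an entry. A gene with several windows counted as holding an element if any of them did. Figures were drawn with python 3.11.15 and matplotlib 3.10.9. Scripts were tested on simulated data.

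The contrast, the gene lists and the genes were chosen with earlier results of these data known. Genes named were those past the test against both ends, up to 12 in each direction, up to 4 members of each list in order of the smaller of both differences, and a set of retinal genes; the other list members named to describe a list, and the genes nearest the threshold, were chosen after their values were seen. The labels do not say that equal replicate numbers pair the samples, and no replicate block was used in the contrast. Of 40 same-numbered pairs 10 had deviations correlated over 0.1 (range -0.574 to 0.563). Pairs with different numbers were not compared, so these correlations cannot decide whether the numbers pair the samples. Alternatives covered the summary per gene, filter, scaling, model, left-out arrays and ages, and the Y-linked, lens and pigment levels as covariates. The count against each end separately, and the fit without 4 months replicate 4 and both arrays of 10 months low in Y-linked genes, were added after the data had been seen. 1 X-linked gene is not reported here.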

Additional observations from a re-analysis of the deposited data

Results flagged for a closer look

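Within an age, a single array lay far from its other 3 31 times among 545 groups of gene values and 55 groups of list means. Chance alone gives such a gap in about 1 in 20 groups of 4. In each case the value is followed by its nearest neighbour in the group.

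The array of 4 months replicate 4, which also correlated least with the rest, held 7 of these values. It was lowest for Ctss (9.21, next 9.41), Eif2s3y (7.5, next 7.74), Kdm5d (7.15, next 7.43), Ifit3 (5.41, next 6.63) and Chordc1 (6.14, next 6.93). It was highest for Nrl (6.53, next 6.15) and for the mean of the immediate early list (7.86, next 7.7).

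Other low values at the middle ages were Csf1r (7.51, next 7.74) and Rgs11 (8.68, next 8.89) at 6 months replicate 4, Pdia3 at 6 months replicate 1 (11.68, next 11.93), B2m (9.23, next 9.42) and Junb (7.52, next 7.73) at 2 months replicate 1, Mthfd2 at 4 months replicate 3 (7.37, next 7.6), Clu at 4 months replicate 2 (12.22, next 12.29) and the pigment list at 2 months replicate 4 (7.09, next 7.24). High values there were Pdia6 at 6 months replicate 3 (10.14, next 10.02), Cabp4 at 2 months replicate 4 (10.1, next 9.83), and Cxcl13 (7.12, next 6.63) and the complement list (8.1, next 7.93) at 4 months replicate 1.

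At 1 month, replicate 3 was highest for C1qc (7.54, next 7.33), Fgf2 (8.45, next 8.28), Edn2 (5.93, next 5.67) and Nr4a3 (6.37, next 6.17). Replicate 1 was highest for Pdia4 (10.04, next 9.97) and Cplx4 (10.79, next 10.72), replicate 4 lowest for Rnft2 (8.78, next 8.96) and replicate 2 lowest for Cd53 (5.6, next 5.92). At 10 months, replicate 2 was lowest for Ifit1 (5.14, next 6.53), Clu (12.06, next 12.22) and the complement list (7.53, next 7.7), and replicate 1 for Asns (9.35, next 9.73).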

How the results depend on the processing

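Against 1920 called genes, 678 peaks and 705 dips, the counts stayed within 1.5 times under the mean of the probe sets, no filter, the 50% filter, both scalings (median centring and quantile normalization), trend and robust eBayes, 1 mean for the middle arrays, the Y-linked covariate and each left-out array. They were 723, 262 and 309 with the brightest probe set, 902, 341 and 336 with the pigment level as a covariate, 371, 174 and 110 with the lens level, 1167, 433 and 446 without the 2 month group, and 9, 5 and 4 when a change of at least 1.2-fold was tested. With array weights there were 1091 dips. The causes were not tested. Leaving out each array gave 1485 to 2345 genes, 500 to 889 peaks and 528 to 859 dips.

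The 8 peaks and 3 dips past both ends were the least stable counts. Leaving out each array gave 0 to 15 peaks and 0 to 9 dips. They were 13 and 6 with the mean of the probe sets, 4 and 1 with no filter, 18 and 18 with the 50% filter, 20 and 11 with trend and robust eBayes, 38 and 23 with array weights, 2 and 1 with the Y-linked level, 3 and 1 with the pigment level, 0 and 0 with the lens level or without the 2 month group, 0 and 1 without the 4 month group, and 0 and 0 for a 1.2-fold change. Peaks numbered 1 with 1 mean for the middle arrays, and dips 1 without the 6 month group. Without both low-Y arrays of 10 months there were 4 and 7, and without these and 4 months replicate 4 there were 16 dips. With the replicate number as a block there were 0 and 0, and 1683 called genes. The block moved no other of these counts by over 1.5 times.

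Against each end separately there were 118 peaks and 148 dips. Leaving out each array gave 64 to 171 and 73 to 174. There were 194 and 226 with array weights, 46 and 46 with the brightest probe set, 69 and 53 with the pigment level, 5 and 3 with the lens level, 76 and 82 without the 2 month group, 0 and 1 for a 1.2-fold change, 61 dips with the Y-linked level, and 77 peaks without both low-Y arrays.

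Of the 87 called genes in the text, 8 were called in every setting: Hspa5, Creld2, C4b, Gpr152, Egr1, Fos, Nr4a1 and Cirbp. Over 3362 pairs of gene and setting 271 lost the call and 4 reversed. Taken by their brightest probe set, Col4a1 was 0.033, Junb 0.116 and Per2 0.0585, and with the lens covariate Cryaa was 0.0285 (limma, adjusted p = 0.916, 0.603, 0.847 and 0.97). Of 843 pairs for 22 genes not called, 33 passed. Differences below the spread of 4 mice an age, and probe sets near the dim limit, are beyond what these arrays can resolve.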
